A study of Homo sapiens with 12 samples.

Results

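Human endometrial cancer cells of the line ECC1 were compared after estradiol and without it, over all 12 arrays of the series. The comparison set all 6 arrays whose titles say that estradiol was given against all 6 whose titles say that it was not, so every array of the series was used. Each set of 6 held 3 arrays titled parental ECC1 and 3 titled ECC1 MTDH KO, a line in which MTDH, the gene of metadherin, was knocked out. Estradiol was given at 10 nM for 24 h, and all cells had spent the 24 h before that in RPMI1640 medium with 5% charcoal-stripped serum, which is depleted of steroids. The labels name no vehicle for the untreated cells, and they do not say whether the knockout was 1 clone or whether replicates were separate cultures. The p-values thus rest on the scatter among these 12 arrays alone, and that scatter may be technical.

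The line of each array entered the model as a term, and the level of MTDH on the array set that term. Values are log2 expression throughout, and where 3 values are given for 6 arrays they are the lowest, the median and the highest. MTDH read above 10 on 6 arrays (10.78 to 11.43) and below 9.5 on the other 6 (8.49 to 8.97), with 3 estradiol and 3 untreated arrays at each level. As MTDH set the term, its level is given as a description with no test: 8.49, 9.90 and 10.96 in estradiol arrays, against 8.53, 9.68 and 11.43 in untreated arrays. On 2 arrays the level went against the title. The array titled parental estradiol 3 read 8.97 and the array titled knockout estradiol 1 read 10.94, and across the genes tested each was most like an array of the other line (Pearson's r 0.9967 with knockout estradiol 3, and 0.9969 with parental estradiol 2, across genes, which are not independent replicates). Both were estradiol arrays by title, and titles alone decided which arrays were estradiol arrays. Because the levels and the titles each split the estradiol arrays 3 against 3, the estradiol difference of a gene is the same number whichever of them sets the line term, and only its error changes.

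Estradiol is known to act by binding estrogen receptors, of which the one encoded by ESR1 is the main form in the endometrial epithelium. The bound receptor attaches to DNA, directly at estrogen response elements or through other factors, recruits coactivators or corepressors, and raises some genes and lowers others. In the endometrium it is known for driving the growth of the epithelium and for inducing the progesterone receptor, and in breast cells its targets have been mapped in detail. Which receptor carried the differences described here was not tested. As RNA came from whole cultures, a change in the share of cells with a gene on and a change in the level per cell cannot be told apart.

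With 6 arrays a side, limma called 2893 of 19670 genes (14.7%) at an adjusted p under 0.05, 541 higher with estradiol (2.75%) and 2352 lower (12%). Most changes were small: the median size of a called difference was 0.25, and 194 called genes (0.986%) differed by 1.5-fold or more, 90 higher (0.458%) and 104 lower (0.529%). The values of the 6 estradiol arrays lay wholly above or wholly below those of the 6 untreated arrays for 835 genes (4.25%). The excess of falls depended on scaling. After quantile normalization, which gives every array the same distribution, 2964 genes (15.1%) were called, 1349 higher (6.86%) and 1615 lower (8.21%), so that 45.5% of the calls were rises, against 18.7% in the deposited values. The upper quartile of the arrays lay between 7.57 and 7.70 with estradiol and between 7.66 and 7.77 without it. Of the genes called in the deposited values, all 541 rises and 1563 of the falls were also called in the same direction after quantile normalization, 789 falls were not called, and 0 turned round. Counts of rises and falls within gene groups are therefore given under both scalings. Counts in the deposited values are to be read against the 2.75% of all genes called higher and the 12% called lower. Counts after quantile normalization are to be read against the 6.86% called higher and the 8.21% called lower in that scaling. No group was tested against the rest. With the line taken from the titles, 1890 genes were called (339 higher and 1551 lower), and without the 2 arrays 2366 (410 higher and 1956 lower).

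**Figure D1:**
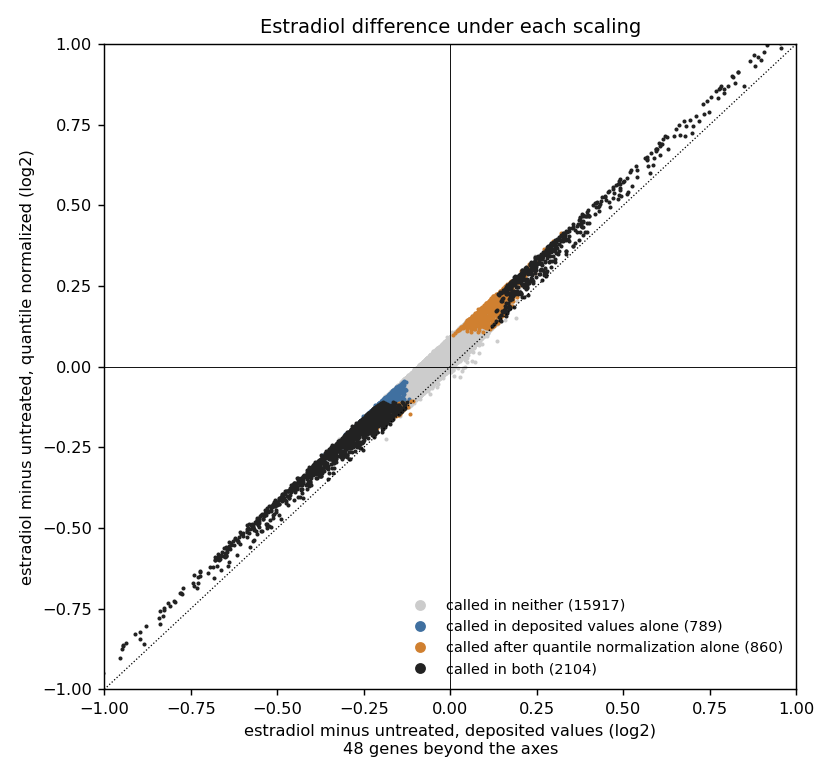
Difference between estradiol and untreated arrays (log2) for each of the 19670 genes tested, in the deposited values (horizontal) and after quantile normalization (vertical). Points are genes, coloured by whether they were called in both scalings (2104), in the deposited values alone (789, all lower), after quantile normalization alone (860, of which 808 higher) or in neither (15917). The dotted line marks equal differences, and 48 genes lie beyond the axes.

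The cells read as epithelial in both states. Of 20 listed markers of the endometrial epithelium, 17 passed the filter on low values, and the keratin KRT8 was among the brightest, at 12.26, 12.48 and 12.71 in estradiol arrays, against 12.81, 12.95 and 13.31 in untreated arrays. Most endothelial and immune markers were below the filter, as 2 of 10 and 6 of 15 passed, while 10 of 18 stromal markers passed. Among the 6 immune markers tested 0 were called with limma and 0 had an unadjusted p under 0.05, beside 26.3% of all genes tested. CD68, a macrophage protein, was at 7.91, 8.02 and 8.22 in estradiol arrays, against 7.996, 8.08 and 8.27 in untreated arrays. Of the endothelial markers VWF, the von Willebrand factor, was called, at −0.40 ± 0.05 (adjusted p = 4.6e-05), and 0 rose. In the stromal list 1 gene rose and 4 fell (1 and 4 after quantile normalization; median −0.04, or −0.01 after quantile normalization). ACTA2, smooth muscle actin, fell by 1.25 (SE 0.06) and TAGLN, an actin-binding protein, by 0.65, the collagen COL3A1 fell by 0.27, and FBLN1, a matrix protein, rose by 0.79 ± 0.09. DCN, LUM, PDGFRA, PDGFRB and FAP were among the 8 listed stromal markers that did not pass the filter. ACTA2 stood at 8.74, 9.73 and 10.83 in estradiol arrays, against 10.08, 11.001 and 11.89 in untreated arrays, so the groups overlap, and its call was lost with no line term (adjusted p = 0.15). Of the epithelial markers 9 of 17 were called lower and 1 higher, and their summed signal on the log2 scale was 14.82 to 15.27 in estradiol arrays, against 15.04 to 15.59 in untreated arrays. The summed signal of the stromal markers tested was 12.26 to 12.45 in estradiol arrays, against 11.99 to 12.85 in untreated arrays. That of the endothelial markers was 8.30 to 8.47 in estradiol arrays, against 8.59 to 8.67 in untreated arrays, and that of the immune markers 9.65 to 9.71 in estradiol arrays, against 9.70 to 9.79 in untreated arrays. The part of other cell types in the differences below was not tested.

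The genes that marked this response were THBS1, SLCO2A1, DHRS3, ALPPL2, IGFBP3 and ABCA1. They were chosen by their difference between estradiol and untreated arrays in these same data, so their values are given as a description with no test. SLCO2A1, which carries prostaglandins into cells, read 11.73, 11.92 and 12.05 in estradiol arrays, against 8.55, 8.74 and 8.94 in untreated arrays, a difference of 3.15 ± 0.07 (SE, n = 6 per group). THBS1, the matrix glycoprotein thrombospondin, read 11.81, 11.96 and 12.36 in estradiol arrays, against 8.73, 9.07 and 9.24 in untreated arrays (2.96 ± 0.08). On every estradiol array both genes stood well above every untreated array. DHRS3, an enzyme that reduces retinal to retinol, read 10.24, 10.75 and 11.20 in estradiol arrays, against 7.18, 7.57 and 8.18 in untreated arrays (3.11 ± 0.07). ALPPL2, an alkaline phosphatase of the placental type, read 9.96, 10.47 and 10.87 in estradiol arrays, against 6.95, 7.16 and 7.41 in untreated arrays (3.25 ± 0.13). The untreated arrays put ALPPL2 close to 6.82, the median of all values in the table. IGFBP3, a binding protein of insulin-like growth factors, read 9.64, 9.76 and 9.86 in estradiol arrays, against 11.23, 11.63 and 11.76 in untreated arrays (−1.83 ± 0.07). ABCA1, which exports cholesterol from cells, read 8.29, 8.604 and 8.81 in estradiol arrays, against 9.98, 10.07 and 10.15 in untreated arrays (−1.496 ± 0.06). For both, the highest estradiol array lay more than a log2 unit below the lowest untreated array.

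**Figure D2:**
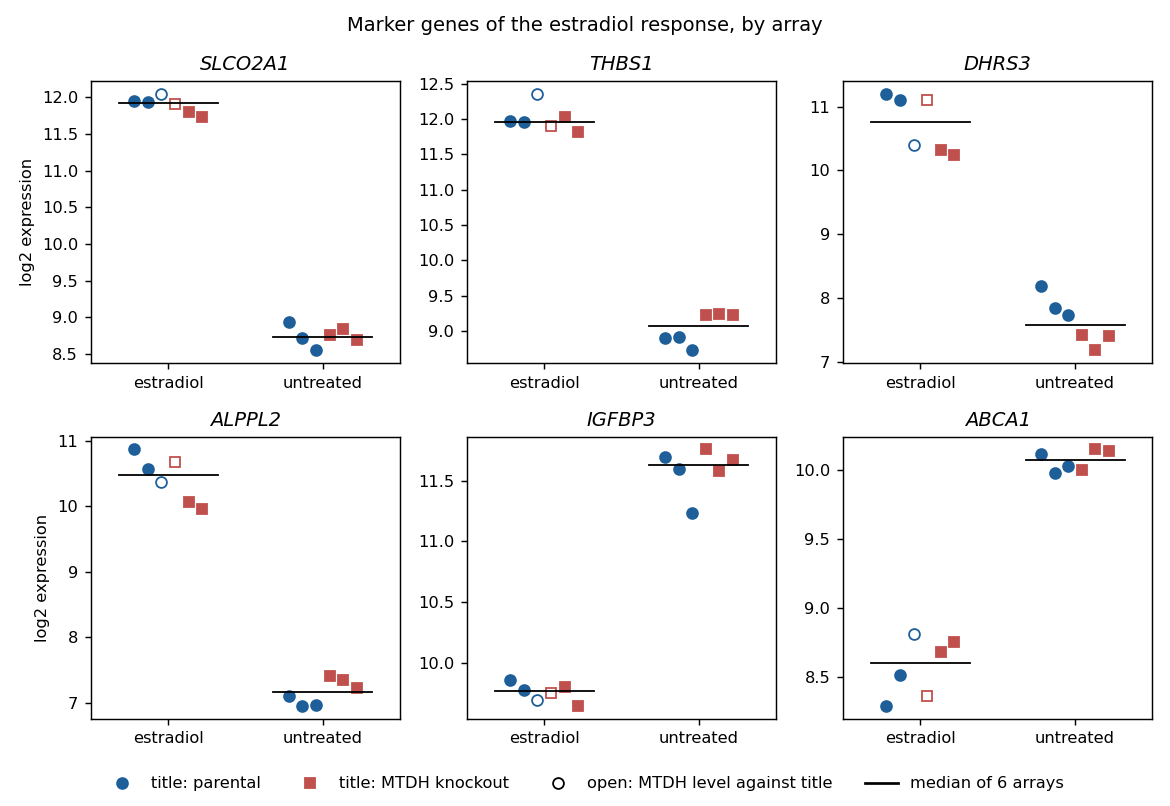
Log2 expression of the 6 marker genes on each array, estradiol left and untreated right in each panel, with the line by title as colour and shape, the 2 arrays whose MTDH level went against their title as open symbols, and the median of 6 arrays as a bar. In every panel the 6 estradiol arrays lie apart from the 6 untreated arrays, and the open symbols lie with the estradiol arrays. The axes differ between panels. ALPPL2 spans 9.96 to 10.87 with estradiol and 6.95 to 7.41 without it.

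The promoters of a few of these genes are shown since estradiol is known to act through receptor-bound DNA, and they let a reader look for the receptor's motif. Each is 300 bases from RefSeq (build GRCh38.p14), 250 before the gene's start and 50 after it, read 5′ to 3′ on the gene's strand. Capitals mark an arm of the consensus estrogen response element, GGTCA or its reverse complement TGACC. THBS1 is the matrix gene above, at chr15:39580829-39581128 (plus strand). TGFA and CA12 are estrogen-induced genes described below, at chr2:70553777-70554076 (minus strand) and chr15:63381797-63382096 (minus strand). IGFBP3, the largest fall, is at chr7:45921223-45921522 (minus strand).
THBS1: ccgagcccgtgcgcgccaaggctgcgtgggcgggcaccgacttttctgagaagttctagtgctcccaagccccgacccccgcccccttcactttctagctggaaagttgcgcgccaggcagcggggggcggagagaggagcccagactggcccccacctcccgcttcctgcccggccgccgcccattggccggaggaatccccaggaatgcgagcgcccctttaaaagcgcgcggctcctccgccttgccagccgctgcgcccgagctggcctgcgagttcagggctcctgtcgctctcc
TGFA: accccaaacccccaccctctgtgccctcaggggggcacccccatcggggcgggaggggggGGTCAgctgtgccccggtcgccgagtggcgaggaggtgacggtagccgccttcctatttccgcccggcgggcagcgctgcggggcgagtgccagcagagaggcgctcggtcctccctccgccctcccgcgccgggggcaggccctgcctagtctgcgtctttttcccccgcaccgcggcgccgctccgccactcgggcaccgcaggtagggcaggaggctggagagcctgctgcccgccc
CA12: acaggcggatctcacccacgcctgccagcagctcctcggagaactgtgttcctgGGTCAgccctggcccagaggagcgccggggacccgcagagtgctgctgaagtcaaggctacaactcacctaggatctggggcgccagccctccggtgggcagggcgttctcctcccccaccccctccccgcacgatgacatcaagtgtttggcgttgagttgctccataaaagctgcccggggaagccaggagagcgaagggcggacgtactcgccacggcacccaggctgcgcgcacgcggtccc
IGFBP3: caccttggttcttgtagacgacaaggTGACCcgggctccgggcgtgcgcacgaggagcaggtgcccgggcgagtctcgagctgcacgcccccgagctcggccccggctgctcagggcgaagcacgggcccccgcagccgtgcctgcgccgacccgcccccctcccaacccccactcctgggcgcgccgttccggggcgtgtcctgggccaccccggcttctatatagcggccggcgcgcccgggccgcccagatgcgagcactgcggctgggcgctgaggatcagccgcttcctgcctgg
TGFA held 1 arm, which began 190 bases before the start, CA12 held 1 at 196 bases and IGFBP3 held 1 at 224 bases, while THBS1 held 0. Of other named genes, ABCA1 held 1 at 69 bases, and SLC7A5, CLDN1 and JUP held 0. The full element, GGTCANNNTGACC, which is its own reverse complement and contains both arms, was in 18 of 27305 promoters in the table (0.0659%), in 1 of those of the 10762 genes tested that had an entry (0.00929%), and in 0 of the 334 promoters matched to a gene called higher and 0 of the 1725 matched to a gene called lower. An arm on either strand was in 31.7% of the promoters of genes called higher, 32.1% of those of genes called lower and 34.8% of those of all 10762 genes tested that had a promoter in the table. These are matches of letters in a short window and say nothing about binding elsewhere.

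The other large rises without overlap between groups had varied functions. ANO1, a calcium-activated chloride channel, had a row under its current name and a row under its older name TMEM16A, and the rows rose by 2.27 ± 0.07 (adjusted p = 1.4e-13) and 2.47 ± 0.09 (adjusted p = 1.6e-12). ANO1 read 9.18, 10.28 and 11.19 in estradiol arrays, against 7.12, 7.90 and 8.89 in untreated arrays. MLPH, melanophilin, which links secretory organelles to myosin, rose by 2.28 ± 0.15 (adjusted p = 9.7e-09). It read 8.61, 9.63 and 10.44 in estradiol arrays, against 7.03, 7.28 and 7.59 in untreated arrays. CACNA1I, the pore subunit of a low-voltage calcium channel, read 8.69, 8.87 and 9.003 in estradiol arrays, against 6.75, 6.88 and 6.93 in untreated arrays (2.00 ± 0.06, adjusted p = 5.7e-14). In untreated cells CACNA1I was close to the median of the table, and MLPH within a log2 unit of it. G0S2, an inhibitor of the triglyceride lipase ATGL, read 8.88, 8.99 and 9.21 in estradiol arrays, against 6.91, 7.07 and 7.15 in untreated arrays (1.97 ± 0.05, adjusted p = 2.1e-14). CKB, the brain form of creatine kinase and a classic estrogen-induced enzyme of the rat uterus, read 11.50, 11.83 and 12.16 in estradiol arrays, against 9.85, 9.99 and 10.28 in untreated arrays (1.82 ± 0.07, adjusted p = 5.7e-12). PIM1, a serine/threonine kinase, rose by 1.71 ± 0.11, and SLC6A12, a transporter of betaine and GABA, by 1.65 ± 0.06. For each of these 8 rows the 6 estradiol arrays lay above the 6 untreated arrays, as for 209 rows in all (1.06% of those tested).

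The other large falls without overlap included genes of Notch signalling, the cytoskeleton and the matrix. JAG1, a ligand of Notch receptors, read 7.82, 7.95 and 8.14 in estradiol arrays, against 8.84, 9.17 and 9.43 in untreated arrays (−1.20 ± 0.08, adjusted p = 1.8e-08). HES1, a repressor switched on by Notch, read 8.47, 8.54 and 8.91 in estradiol arrays, against 9.40, 9.53 and 9.64 in untreated arrays (−0.95 ± 0.07, adjusted p = 1.8e-08). Both were named here because their groups did not overlap, so that property is no result about the pathway. The Wnt and Notch list is given further below. KRT17 and KRT80, keratins of epithelial intermediate filaments, differed by −1.16 ± 0.07 and −1.16 ± 0.07. EMP1, an epithelial membrane protein, read 9.42, 9.72 and 9.98 in estradiol arrays, against 10.70, 10.80 and 11.22 in untreated arrays (−1.18 ± 0.07). CYR61, a matricellular protein of the CCN family, read 10.60, 10.64 and 11.01 in estradiol arrays, against 11.23, 11.77 and 12.02 in untreated arrays (−1.01 ± 0.09). EMP1 and CYR61 were bright in untreated cells and stayed well above the median of the table with estradiol, while KRT17 read 7.28, 7.67 and 8.02 in estradiol arrays, against 8.26, 8.82 and 9.37 in untreated arrays. The secreted CRISPLD2 (−1.004 ± 0.07), the adhesion receptor GPR110 (−0.94 ± 0.07) and the homeobox gene MEOX1 (−0.91 ± 0.10) fell likewise, and over the 9 genes the adjusted p lay between 1.9e-09 and 4.8e-06. Falls without overlap numbered 626 (3.18% of the genes tested).

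The estrogen receptor gene itself was lower with estradiol. ESR1 read 9.34, 9.52 and 9.70 in estradiol arrays, against 9.83, 10.04 and 10.26 in untreated arrays, a fall of 0.52 (SE 0.08, adjusted p = 0.00014), and the groups did not overlap. Of 22 tested steroid receptors and cofactors, 4 rose and 8 fell (5 and 7 after quantile normalization; median −0.09, or −0.04 after quantile normalization). All genes tested had a median difference of −0.03, or 0.00 after quantile normalization. NRIP1, a corepressor induced by estrogen in breast cells, rose (0.62 ± 0.07, adjusted p = 3.4e-06). The mineralocorticoid receptor gene NR3C2 (−0.41 ± 0.04) and the transcriptional coregulator CITED2 (−0.54 ± 0.05) fell. NRIP1 read 8.37, 8.78 and 8.94 in estradiol arrays, against 7.78, 8.09 and 8.43 in untreated arrays, with a small overlap between its groups.

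Genes known to be induced by estrogen, mostly from breast cells, moved in both directions. After quantile normalization 6.86% of all genes tested were called higher and 8.21% lower. Of 27 tested members of 40 listed, 13 rose and 4 fell (14 and 3 after quantile normalization; median 0.09, or 0.14 after quantile normalization), beside 2.75% and 12% of all genes tested. The growth factor TGFA, a ligand of the EGF receptor, read 11.18, 11.64 and 11.92 in estradiol arrays, against 9.88, 10.16 and 10.54 in untreated arrays (1.42 ± 0.06, adjusted p = 4.3e-11). TSKU, a secreted leucine-rich repeat protein, read 10.505, 10.69 and 10.85 in estradiol arrays, against 9.11, 9.42 and 9.497 in untreated arrays (1.33 ± 0.06, adjusted p = 5.2e-11). CA12, a carbonic anhydrase of the cell surface, read 8.34, 8.51 and 8.75 in estradiol arrays, against 7.23, 7.35 and 7.50 in untreated arrays (1.19 ± 0.06, adjusted p = 1.4e-10). SLC7A5, the light chain of the large neutral amino acid exchanger, read 13.20, 13.32 and 13.45 in estradiol arrays, against 12.07, 12.16 and 12.49 in untreated arrays (1.10 ± 0.07, adjusted p = 4.1e-09). In all 4 the estradiol arrays stood above every untreated array. PGR, the progesterone receptor, and GREB1, a receptor cofactor, are the best known members and were chosen for mention after their values were seen. PGR had a median of 6.88 in estradiol arrays, against 6.65 in untreated arrays (0.21 ± 0.05, adjusted p = 0.0056), and GREB1 had a median of 6.95 in estradiol arrays, against 6.72 in untreated arrays (0.21 ± 0.04, adjusted p = 0.0026). Both lay near the median of the table, and neither overlapped between groups. Their untreated medians lay below the filter value of 6.817 and their estradiol medians above it, so estradiol arrays were enough to pass them. The filter can pass a dim gene through 1 group alone, so the counts among the 27 tested do not describe all 40 listed. The remaining 13 of the 40 listed genes did not pass the filter on low values, among them TFF1, which is known as a strongly induced gene of breast cells.

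Genes of growth factor pathways had calls in both directions, beside 2.75% of all genes higher and 12% lower (6.86% and 8.21% after quantile normalization). In the insulin-like growth factor axis 1 of 18 tested genes rose and 4 fell (1 and 4 after quantile normalization; median −0.04, or −0.02 after quantile normalization). Besides IGFBP3, the binding protein gene IGFBP5 fell by 0.68 (adjusted p = 1.5e-06) and the adaptor gene IRS2 by 0.32 (adjusted p = 0.00073), and STC2, a secreted inhibitor of the protease that frees IGF from its binding proteins, rose by 0.43 ± 0.07 (adjusted p = 0.00039). IGFBP5 read 10.17, 10.88 and 11.67 in estradiol arrays, against 10.79, 11.70 and 12.21 in untreated arrays, and with the line taken from the titles IGFBP5 (adjusted p = 0.16), IRS2 (adjusted p = 0.1) and STC2 (adjusted p = 0.092) missed the threshold. In the EGF family 1 of 15 tested genes rose, the ligand TGFA, and 3 fell (2 and 3 after quantile normalization; median −0.09, or −0.03 after quantile normalization). Those that fell were the receptor genes ERBB2 (−0.45 ± 0.06, adjusted p = 1.9e-05) and ERBB3 (−0.43 ± 0.06, adjusted p = 5e-05) and ADAM10 (−0.64 ± 0.08, adjusted p = 2.7e-05), a protease that sheds ligands. ERBB3 read 8.001, 8.29 and 8.48 in estradiol arrays, against 8.61, 8.66 and 8.86 in untreated arrays and ADAM10 8.91, 9.03 and 9.27 in estradiol arrays, against 9.49, 9.66 and 10.06 in untreated arrays, without overlap in either. Of 19 feedback genes of the ERK pathway 3 rose and 3 fell (7 and 2 after quantile normalization; median 0.02, or 0.08 after quantile normalization), with the Sprouty inhibitors on both sides, SPRY1 at −0.51 ± 0.06 and SPRY2 at 0.33 ± 0.05 (adjusted p = 0.18 with the line from the titles). The imprinted PHLDA2 was at 0.25 ± 0.06 and the phosphatase gene DUSP1 at −0.20 ± 0.05, and both missed the threshold with the line from the titles (adjusted p = 0.058 and 0.0513).

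Among genes of protein synthesis the calls were rises, except for 1 ribosomal protein gene, and small in size. Of all genes tested 2.75% were called higher, or 6.86% after quantile normalization. Of 44 tested genes of ribosome assembly 6 rose and 0 fell, and after quantile normalization 21 rose and 0 fell (median 0.06, or 0.12 after quantile normalization). The nucleolar factors NPM3 (0.30 ± 0.05), NOP16 (0.31 ± 0.06), LYAR (0.29 ± 0.07) and NIP7 (0.21 ± 0.05) had the smallest p (adjusted p between 0.00075 and 0.015), and NIP7 missed the threshold without the 2 arrays (adjusted p = 0.058). NPM3 read 10.46, 10.68 and 10.72 in estradiol arrays, against 10.24, 10.29 and 10.4999 in untreated arrays, with overlap. Of 54 ribosomal protein genes 5 rose and 1 fell (8 and 1 after quantile normalization; median 0.03, or 0.04 after quantile normalization). RPS21 (0.32 ± 0.05), RPL24 (0.30 ± 0.05), RPL29 (0.32 ± 0.05) and RPL26 (0.52 ± 0.08) rose, and such genes have many near-identical pseudogene copies, so their values are uncertain. Of 34 genes that charge tRNAs or make amino acids 5 rose and 0 fell (9 and 0 after quantile normalization; median 0.01, or 0.07 after quantile normalization). They included asparagine synthetase, ASNS (0.29 ± 0.04), the cysteinyl-tRNA synthetase CARS (0.26 ± 0.06), the alanine transaminase GPT2 (0.26 ± 0.06) and the mitochondrial folate enzyme MTHFD2 (0.26 ± 0.07), of which GPT2 (adjusted p = 0.12) and MTHFD2 (adjusted p = 0.16) missed the threshold with the line from the titles. Several of these rises were larger in knockout cells in the 10 arrays whose title and MTDH level go together. LYAR differed by 0.41 in knockout cells and 0.12 in parental cells, and NIP7 by 0.33 and 0.07. GPT2 differed by 0.37 and 0.08 and MTHFD2 by 0.47 and 0.09, in the same order. Their adjusted interaction p from limma lay between 0.16 and 0.32. RPL24 differed by 0.30 in knockout cells and 0.31 in parental cells.

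Amino acid uptake gave rises as well. Of 18 transporter genes 4 rose and 0 fell (5 and 0 after quantile normalization; median 0.02, or 0.07 after quantile normalization). SLC7A5 and SLC3A2, which encode the light and heavy chains of the same exchanger, both rose. SLC3A2 read 11.32, 11.53 and 11.57 in estradiol arrays, against 10.56, 10.79 and 10.99 in untreated arrays (0.72 ± 0.06, adjusted p = 4.4e-07), and neither gene's groups overlapped. The glutamine carrier SLC1A5 (0.25 ± 0.07) and the glycine transporter SLC6A9 (0.16 ± 0.04) had smaller differences, and both missed the threshold with the line from the titles (adjusted p = 0.071 and 0.22). In the respiratory chain 4 of 35 genes rose and 0 fell (10 and 0 after quantile normalization; median 0.05, or 0.08 after quantile normalization): ATP5G1 of ATP synthase (0.25 ± 0.05), NDUFA8 of complex I (0.23 ± 0.06), and SDHD (0.21 ± 0.06) and SDHB (0.17 ± 0.05) of succinate dehydrogenase. In the 10 arrays whose title and MTDH level go together SDHD differed by 0.40 in knockout cells and 0.05 in parental cells, with an adjusted interaction p from limma of 0.12. Likewise NDUFA8 differed by 0.37 and 0.11, ATP5G1 by 0.37 and 0.17 and SDHB by 0.29 and 0.09. The adjusted interaction p from limma of these was 0.37, 0.50 and 0.39 in that order. SDHB read 11.70, 11.72 and 11.86 in estradiol arrays, against 11.50, 11.59 and 11.65 in untreated arrays. Its groups did not overlap.

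Among genes of growth arrest the calls were falls in the deposited values. After quantile normalization 6.86% of all genes tested were called higher and 8.21% lower. Of 28 tested members 0 rose and 16 fell (2 and 13 after quantile normalization; median −0.19, or −0.11 after quantile normalization), beside 12% of all genes lower. BTG2, an antiproliferative cofactor of mRNA decay, read 8.17, 8.31 and 8.41 in estradiol arrays, against 8.79, 8.94 and 9.24 in untreated arrays (−0.66 ± 0.06, adjusted p = 9.9e-07). TP53INP1, a target of p53 that acts in autophagy and cell death, fell by 0.61 (adjusted p = 7.6e-07). YPEL5 read 8.82, 9.02 and 9.11 in estradiol arrays, against 9.28, 9.36 and 9.47 in untreated arrays (−0.38 ± 0.04), and YPEL3, a member of the same family known for causing growth arrest, read 7.20, 7.25 and 7.34 in estradiol arrays, against 7.49, 7.65 and 7.79 in untreated arrays (−0.38 ± 0.05). BTG2, YPEL3 and YPEL5 did not overlap between groups.

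Genes of cell division are given next, beside 2.75% of all genes higher and 12% lower (6.86% and 8.21% after quantile normalization). Of 39 tested mitosis genes 0 rose and 15 fell (1 and 12 after quantile normalization; median −0.14, or −0.07 after quantile normalization). The phosphatases CDC25B (−0.39 ± 0.06) and CDC25C (−0.22 ± 0.05), which activate mitotic kinases, separase ESPL1 (−0.32 ± 0.06, adjusted p = 0.056 with the line from the titles) and the cytokinesis motor KIF23 (−0.31 ± 0.06) were among the falls. CDC25C read 7.98, 8.06 and 8.13 in estradiol arrays, against 8.19, 8.27 and 8.34 in untreated arrays. Its groups did not overlap, and it was the mitosis gene for which this held. Of 41 replication genes 1 rose and 7 fell (3 and 7 after quantile normalization), with a median of −0.10, or −0.03 after quantile normalization. There were falls in the nucleoside kinase TK1 (−0.43 ± 0.06), the ligase LIG1 (−0.22 ± 0.05) and the primase PRIM1 (−0.27 ± 0.06). The rise was in UHRF1 (0.43 ± 0.06), a factor that maintains DNA methylation. TK1 read 9.75, 10.09 and 10.21 in estradiol arrays, against 10.19, 10.46 and 10.72 in untreated arrays and UHRF1 10.36, 10.75 and 11.06 in estradiol arrays, against 9.98, 10.35 and 10.56 in untreated arrays, with overlap in both. Among 25 genes of G1 cyclins, their inhibitors and the MYC network 0 rose and 5 fell (2 and 4 after quantile normalization; median −0.05, or −0.01 after quantile normalization). Those with the smallest p were MYCN (−0.34 ± 0.05), the kinase inhibitors CDKN1C (−0.29 ± 0.06) and CDKN2D (−0.19 ± 0.05) and the MYC antagonist MXD4 (−0.23 ± 0.06).

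Among genes of the epithelial cytoskeleton and of cell junctions nearly all calls were falls. Of 11 tested keratins 0 rose and 7 fell (0 and 7 after quantile normalization; median −0.22, or −0.18 after quantile normalization). Beside KRT17 and KRT80, the basal keratin KRT5 read 7.02, 7.14 and 7.26 in estradiol arrays, against 7.82, 7.91 and 8.01 in untreated arrays (−0.78 ± 0.05, adjusted p = 1.1e-08), and the simple epithelial keratin KRT8 differed by −0.50 ± 0.05 (adjusted p = 4.5e-06). Neither overlapped between groups. Of 29 genes of epithelial junctions 1 rose and 14 fell (2 and 12 after quantile normalization; median −0.21, or −0.12 after quantile normalization). JUP, plakoglobin of desmosomes and adherens junctions, read 8.27, 8.41 and 8.47 in estradiol arrays, against 8.98, 9.17 and 9.38 in untreated arrays (−0.82 ± 0.06, adjusted p = 3.5e-08). CLDN1, a claudin of tight junctions, read 9.52, 9.78 and 9.98 in estradiol arrays, against 10.21, 10.51 and 10.63 in untreated arrays (−0.70 ± 0.07, adjusted p = 8.4e-07). CTNNA1, alpha-catenin, read 11.99, 12.12 and 12.15 in estradiol arrays, against 12.44, 12.53 and 12.69 in untreated arrays (−0.47 ± 0.05, adjusted p = 3.4e-06). DSP, desmoplakin, fell by 0.49 (adjusted p = 1.6e-06), and in all 4 the estradiol arrays lay below every untreated array.

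Most calls among matrix proteins and their receptors were falls too. Of 19 tested integrin genes and partners 1 rose and 10 fell (1 and 9 after quantile normalization; median −0.17, or −0.14 after quantile normalization). ITGB4, the beta subunit of hemidesmosomes, differed by −0.68 ± 0.07, ITGA3, a laminin receptor subunit, by −0.54 ± 0.07, ITGB3 by −0.54 ± 0.07 and ITGB6 by −0.34 ± 0.05 (adjusted p between 2e-06 and 0.00019). ITGA3 read 7.69, 7.86 and 7.96 in estradiol arrays, against 8.17, 8.37 and 8.61 in untreated arrays, without overlap. Of 23 matrix genes 2 rose and 13 fell (4 and 12 after quantile normalization; median −0.26, or −0.18 after quantile normalization), so the large rise of THBS1 went against most of its group. LAMA3, a laminin chain of epithelial basement membranes, read 7.06, 7.33 and 7.45 in estradiol arrays, against 7.74, 7.85 and 8.13 in untreated arrays (−0.60 ± 0.05, adjusted p = 3e-07). CTGF, of the same CCN family as CYR61, read 7.67, 7.93 and 8.41 in estradiol arrays, against 8.20, 8.89 and 9.56 in untreated arrays (−0.88 ± 0.08, adjusted p = 5.5e-07). LAMA3 did not overlap between groups, and CTGF did. Of 16 genes of plasminogen activation and surface proteases 1 rose and 7 fell (2 and 6 after quantile normalization; median −0.14, or −0.10 after quantile normalization). The rise was PLAT, tissue plasminogen activator, at 9.54, 9.90 and 10.51 in estradiol arrays, against 7.89, 8.596 and 9.03 in untreated arrays (1.44 ± 0.08, adjusted p = 1.3e-09), and the falls included PRSS23 (−0.61 ± 0.06), the protease inhibitor SPINT1 (−0.31 ± 0.06) and TMPRSS4 (−0.24 ± 0.05).

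**Figure D3:**
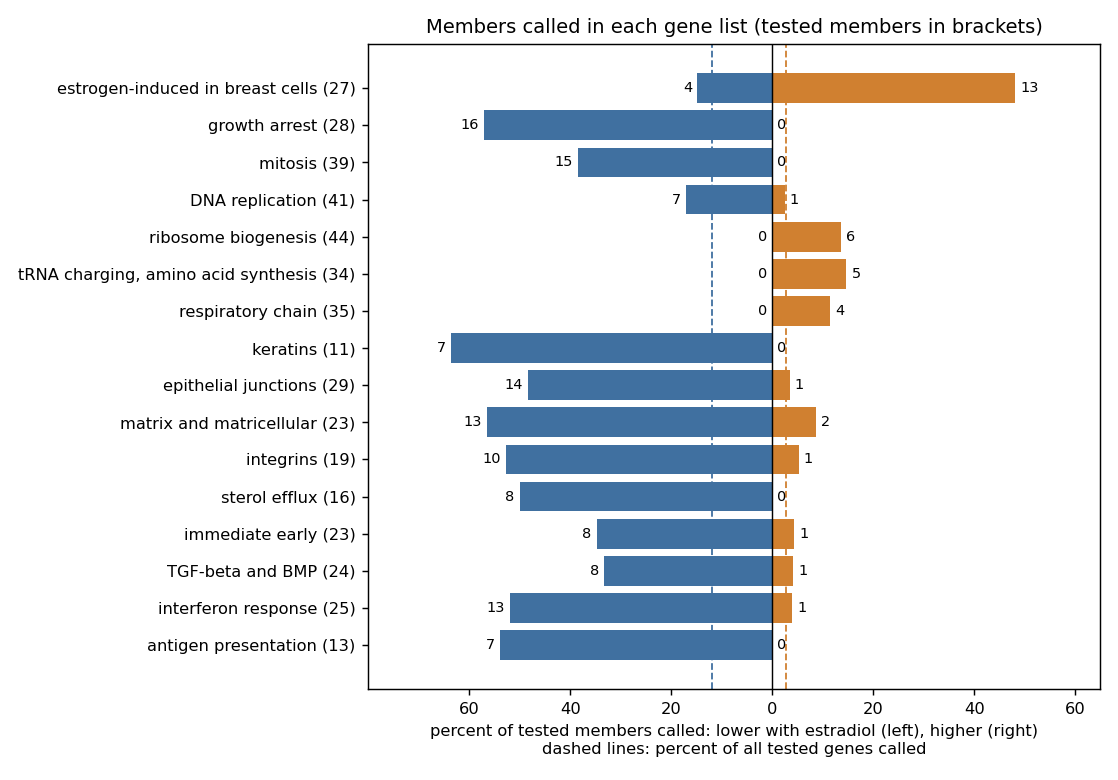
Share of tested members of 16 gene lists called higher (right, orange) or lower (left, blue) with estradiol, in the deposited values, with the number called beside each bar and the tested members in brackets. Dashed lines give the share of all 19670 genes called higher (2.75%) and lower (12%). Growth arrest (16 of 28 lower), keratins (7 of 11) and integrins (10 of 19) extend far to the left, and the estrogen-induced list (13 of 27 higher) to the right.

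Genes of TGF-beta, Notch and Wnt signalling and immediate early genes had falls and few rises. Of all genes 2.75% were called higher and 12% lower (6.86% and 8.21% after quantile normalization). Of 24 genes of TGF-beta and BMP signalling 1 rose and 8 fell (1 and 6 after quantile normalization; median −0.14, or −0.08 after quantile normalization). The BMP targets ID1 (−0.83 ± 0.08) and ID3 (−0.43 ± 0.06), the ligand TGFB2 (−0.38 ± 0.06) and the TGF-beta-induced TGFBI (−0.51 ± 0.08) fell. ID1 read 8.91, 9.39 and 10.15 in estradiol arrays, against 9.92, 10.27 and 10.63 in untreated arrays, with overlap, and ID3 (adjusted p = 0.58) and TGFBI (adjusted p = 0.2) missed the threshold with the line from the titles. In the Wnt and Notch list 1 of 20 rose and 5 fell (1 and 5 after quantile normalization; median −0.06, or −0.01 after quantile normalization), led by JAG1, HES1 and the receptor NOTCH3, and the Wnt receptor FZD5 rose (0.42 ± 0.07). NOTCH3 read 9.49, 9.72 and 9.78 in estradiol arrays, against 10.30, 10.51 and 10.78 in untreated arrays (−0.84 ± 0.07, adjusted p = 1.4e-07), without overlap. Immediate early genes counted 1 up and 8 down of 23 (1 and 6 after quantile normalization; median −0.10, or −0.07 after quantile normalization), with JUN, a subunit of AP-1, at 7.57, 7.82 and 7.91 in estradiol arrays, against 7.95, 8.14 and 8.33 in untreated arrays (−0.37 ± 0.05) and ZFP36L1, a factor of mRNA decay, at −0.45 ± 0.07 (adjusted p = 0.092 with the line from the titles).

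Calls among genes of the interferon response and of antigen presentation were falls but for 1, and all were under 1.5-fold. Of 25 tested interferon-response genes 1 rose and 13 fell (1 and 8 after quantile normalization; median −0.16, or −0.10 after quantile normalization). The antiviral membrane proteins IFITM1 (−0.41 ± 0.04), IFITM2 (−0.42 ± 0.07) and IFITM3 (−0.51 ± 0.07) and the transcription factor IRF1 (−0.25 ± 0.04) had the smallest p. IFITM3 read 9.92, 10.05 and 10.32 in estradiol arrays, against 10.41, 10.61 and 10.76 in untreated arrays and IRF1 7.01, 7.05 and 7.16 in estradiol arrays, against 7.20, 7.33 and 7.41 in untreated arrays, without overlap in either. The IFITM genes lie side by side and are close in sequence, so the signals of their probes may not be independent. Of 13 genes of antigen presentation 0 rose and 7 fell (0 and 7 after quantile normalization; median −0.22, or −0.14 after quantile normalization): among them HLA-E (−0.48 ± 0.06, adjusted p = 0.088 with the line from the titles), HLA-G (−0.28 ± 0.06) and the class II loading factor HLA-DMA (−0.54 ± 0.06). The class I genes are near-identical copies in part, and 0 of the 13 were free of overlap between groups. Targets of NF-kappaB counted 0 up and 2 down of 20 (1 and 2 after quantile normalization), with a median of −0.07, or −0.02 after quantile normalization. The falls were LCN2 (−0.36 ± 0.08, adjusted p = 0.77 with the line from the titles) and TNFAIP2 (−0.25 ± 0.06). Their share was below the 12% of all genes called lower in the deposited values and above the 8.21% after quantile normalization.

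Among sterol genes, the calls in export were falls and those in synthesis went both ways. Of 16 genes of sterol export and LXR targets 0 rose and 8 fell (0 and 8 after quantile normalization; median −0.18, or −0.13 after quantile normalization). After ABCA1, the falls with the smallest p were the lipoprotein gene APOE (−0.48 ± 0.08), the lysosomal sterol carrier NPC2 (−0.30 ± 0.05) and RXRB (−0.29 ± 0.05), a partner of LXR. RXRB read 9.40, 9.63 and 9.71 in estradiol arrays, against 9.75, 9.91 and 9.99 in untreated arrays, without overlap. Of 30 genes of cholesterol and fatty acid synthesis 2 rose and 3 fell (5 and 2 after quantile normalization), with a median of −0.0026 that was 0.07 after quantile normalization. The sterol reductase TM7SF2 (−0.55 ± 0.07) fell, while the kinase PMVK (−0.18 ± 0.05) missed the threshold with the line from the titles (adjusted p = 0.12) and after quantile normalization (adjusted p = 0.19). Beside G0S2, lipid droplet genes counted LPIN1, a phosphatidate phosphatase (0.29 ± 0.04), higher, and the lipase PNPLA2, which G0S2 inhibits (−0.33 ± 0.06), and the acyltransferase AGPAT2 (−0.41 ± 0.07) lower, so that 2 rose and 2 fell of 15 tested (6 and 2 after quantile normalization; median −0.0001, or 0.07 after quantile normalization). LPIN1 (adjusted p = 0.17) and AGPAT2 (adjusted p = 0.088) missed the threshold with the line from the titles.

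Retinoid, prostaglandin and alkaline phosphatase genes each held a change of more than a log2 unit. In the retinoid list 2 of 19 tested genes rose and 6 fell (2 and 4 after quantile normalization; median −0.05, or −0.04 after quantile normalization). Besides DHRS3, the receptor gene RARA read 7.61, 7.72 and 7.90 in estradiol arrays, against 7.30, 7.43 and 7.49 in untreated arrays (0.33 ± 0.04, adjusted p = 5.4e-05), without overlap. RXRB, given above with the sterol genes, was among the 6 falls (−0.29 ± 0.05, adjusted p = 0.00083). Of 16 prostaglandin genes 3 rose and 0 fell (5 and 0 after quantile normalization; median 0.03, or 0.09 after quantile normalization): SLCO2A1, PTGS2, the inducible cyclooxygenase (0.47 ± 0.09, adjusted p = 0.0018), and the receptor PTGER3 (0.15 ± 0.05, adjusted p = 0.042, or 0.22 with the line from the titles). PTGS2 read 7.99, 8.46 and 8.70 in estradiol arrays, against 7.82, 7.92 and 8.01 in untreated arrays, with a small overlap. In the 10 arrays whose title and MTDH level go together PTGS2 differed by 0.07 in knockout cells (adjusted p = 0.73) and 0.76 in parental cells (adjusted p = 4.3e-06), with an adjusted interaction p of 0.0065. All 4 alkaline phosphatases were tested, 2 rose and 1 fell (2 and 1 after quantile normalization; median 0.27, or 0.30 after quantile normalization). The intestinal ALPI rose by 0.33 ± 0.08 and the tissue-nonspecific ALPL fell by 0.14 (adjusted p = 0.042, or 0.22 with the line from the titles), both near the median of the table. ALPPL2, ALPI and the placental ALPP are close in sequence, so signal may be shared between their probes.

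Transport, secretion and stress groups were mixed. Among 24 ion channel and pump genes 3 rose and 8 fell (3 and 7 after quantile normalization; median −0.07, or −0.06 after quantile normalization), with the calcium channel subunit CACNB3 (−0.41 ± 0.07) lower beside the rises of ANO1 and CACNA1I. Mucin and secretory genes counted 3 up and 5 down of 15 (3 and 5 after quantile normalization), with a median of −0.04, or −0.01 after quantile normalization. MUC20 (−0.59 ± 0.07) and MUC1 (−0.24 ± 0.04, adjusted p = 0.0504 with the line from the titles) were lower, and SPDEF (0.34 ± 0.06), a factor of secretory cells, was higher. On every untreated array SPDEF was below the filter value of 6.817, so it passed the filter only through estradiol arrays. Genes of the unfolded protein and integrated stress responses counted 3 up and 4 down of 29 (5 and 3 after quantile normalization; median −0.02, or 0.04 after quantile normalization). TRIB3 (0.39 ± 0.06) and SDF2L1 (0.26 ± 0.05) rose, and DDIT4, an inhibitor of mTORC1 (−0.64 ± 0.10), and PPP1R15A (−0.22 ± 0.05) fell. DDIT4 read 11.23, 11.68 and 12.14 in estradiol arrays, against 12.08, 12.34 and 12.53 in untreated arrays, with overlap. Of 27 cytosolic chaperones 2 rose and 3 fell (6 and 3 after quantile normalization; median −0.02, or 0.05 after quantile normalization), led by the co-chaperone BAG3 at 10.26, 10.72 and 10.85 in estradiol arrays, against 9.52, 9.90 and 10.21 in untreated arrays (0.79 ± 0.06, adjusted p = 1.5e-07), without overlap. CRYAB (−0.41 ± 0.08), HSPA1B (−0.20 ± 0.05) and HSPB1 (−0.25 ± 0.07, adjusted p = 0.09 with the line from the titles) were lower.

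Calls went both ways among genes of energy supply, cell death and detoxification. Glycolysis and hypoxia genes counted 4 up and 3 down of 28 (5 and 3 after quantile normalization; median −0.05, or 0.01 after quantile normalization), with the lactate exporter SLC16A3 at 0.96 ± 0.08 (adjusted p = 3.4e-07), VEGFA, the angiogenic factor, at 0.30 ± 0.04, BNIP3 at 0.47 ± 0.08 and the enolase ENO2 at −0.24 ± 0.05 (adjusted p = 0.0533 with the line from the titles). SLC16A3 read 12.11, 12.54 and 13.04 in estradiol arrays, against 11.41, 11.56 and 11.96 in untreated arrays, without overlap. In the BCL2 family 2 of 19 rose and 4 fell (2 and 4 after quantile normalization; median −0.07, or −0.02 after quantile normalization), the survival gene BCL2L1 (−0.47 ± 0.06) and the death gene BMF (−0.26 ± 0.04) both lower and PMAIP1 (0.30 ± 0.06, adjusted p = 0.17 with the line from the titles), which encodes NOXA, higher. BMF read 6.63, 6.67 and 6.69 in estradiol arrays, against 6.88, 6.92 and 6.99 in untreated arrays, a gap between groups of small absolute size near the median of the table. On every estradiol array BMF was below the filter value of 6.817, so it passed the filter only through untreated arrays. Of 21 targets of the aryl hydrocarbon receptor and NRF2 2 rose and 3 fell (6 and 4 after quantile normalization; median 0.02, or 0.04 after quantile normalization), with the exporter ABCC3 at −0.62 ± 0.05, TIPARP at 0.39 ± 0.06, and CYP1B1, an enzyme that hydroxylates estradiol, at 0.37 ± 0.06 and NQO1 at −0.25 ± 0.06. CYP1B1 and NQO1 missed the threshold with the line from the titles (adjusted p = 0.15 and 0.091). In contrast, of 17 endometrial epithelial genes 1 rose and 9 fell (1 and 9 after quantile normalization; median −0.22, or −0.15 after quantile normalization), among them PAX8 (−0.41 ± 0.05), a Mullerian transcription factor, and FOXJ1 (−0.58 ± 0.06), the factor of ciliated cells. PAX8 read 9.16, 9.39 and 9.5005 in estradiol arrays, against 9.56, 9.76 and 10.09 in untreated arrays and FOXJ1 8.19, 8.28 and 8.39 in estradiol arrays, against 8.58, 8.88 and 9.06 in untreated arrays, without overlap.

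Several lists had 0 calls in a direction with limma, and their genes at an unadjusted p under 0.05 in that direction are given here. Over all genes tested 5175 of 19670 (26.3%) had such a p in either direction, and the share in each direction was not computed. Higher with estradiol at that level were 0 of 28 genes of growth arrest, 1 of 39 of mitosis, 1 of 25 of the G1 cyclin list and 0 of 11 keratins. The same held for 0 of 16 genes of sterol export, 0 of 13 of antigen presentation and 0 of 20 NF-kappaB targets. Lower were 2 of 44 genes of ribosome assembly, 2 of 34 of tRNA charging and amino acid synthesis and 0 of 18 amino acid transporters. So were 1 of 35 genes of the respiratory chain and 2 of 16 prostaglandin genes.

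Most of the response consisted of small changes. Of the 2893 genes called, 2699 (13.7% of those tested) differed by less than 1.5-fold, 451 higher (2.29%) and 2248 lower (11.4%), and 451 of these rises and 1459 of these falls were also called in the same direction after quantile normalization. Some genes were called with 6 arrays a side and in neither comparison of 3 against 3. With the arrays split by MTDH level these were 409 genes (2.08%), all under 1.5-fold, with a median size of 0.18 and a range from 0.12 to 0.37. With the arrays split by title they were 1479 genes (7.52%), with a median size of 0.21 and a range from 0.12 to 1.25, so large changes were among them. The split by title also sets the arrays whose MTDH level went against their title beside arrays of the other level. Neither count is therefore read as what a size of test could resolve. All these comparisons share arrays, so the counts are not separate evidence. Within the gene lists, 15 of 287 called genes belonged to the 409 genes and 116 to the 1479, beside 409 and 1479 of all 2893 genes called. The 15 included the glutamine carrier SLC1A5 and the glycine transporter SLC6A9.

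Among the 409 genes, 3 rises and 25 falls had groups that did not overlap. Beside this, the groups did not overlap for 204 rises and 600 falls among all 2893 genes called. Over all genes tested the shares without overlap were 1.06% higher and 3.18% lower. RTKN read 8.56, 8.64 and 8.74 in estradiol arrays, against 8.43, 8.50 and 8.54 in untreated arrays (0.15 ± 0.04, adjusted p = 0.02). RBM20, a splicing factor, read 6.78, 6.85 and 6.94 in estradiol arrays, against 6.62, 6.68 and 6.76 in untreated arrays (0.16 ± 0.04, adjusted p = 0.015), and C9ORF125 differed by 0.12 ± 0.04 (adjusted p = 0.0487). RBM20 and C9ORF125 stood at the median of the table. On every untreated array both were below the filter value of 6.817, so they passed the filter only through estradiol arrays. C9ORF125 missed the threshold with the line from the titles (adjusted p = 0.0552). Without the 2 arrays all 3 missed it (adjusted p = 0.073, 0.066 and 0.20, in the order RTKN, RBM20, C9ORF125). Among the 10 falls with the smallest p were MYO1E, a class I myosin, at 6.64, 6.80 and 6.88 in estradiol arrays, against 6.93, 6.97 and 7.03 in untreated arrays (−0.19 ± 0.05, adjusted p = 0.0087), and HESX1, a homeobox repressor, at 7.02, 7.11 and 7.17 in estradiol arrays, against 7.17, 7.31 and 7.36 in untreated arrays (−0.18 ± 0.05, adjusted p = 0.013, or 0.061 without the 2 arrays). NACAD read 6.81, 6.92 and 6.99 in estradiol arrays, against 7.001, 7.08 and 7.16 in untreated arrays (−0.16 ± 0.04, adjusted p = 0.011). PROSAPIP1 (−0.19 ± 0.05), KIAA1407 (−0.16 ± 0.04) and ZNF555 (−0.17 ± 0.05), a zinc finger protein, fell likewise. The other 4, FAM149B1 (−0.18 ± 0.04), the mitochondrial peptidase MIPEP (−0.25 ± 0.06), DMAP1 (−0.18 ± 0.04), a chromatin protein, and the anchoring protein AKAP13 (−0.15 ± 0.04), were no longer called once the arrays had been quantile normalized (adjusted p = 0.17, 0.061, 0.18 and 0.32 in that order).

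**Figure D4:**
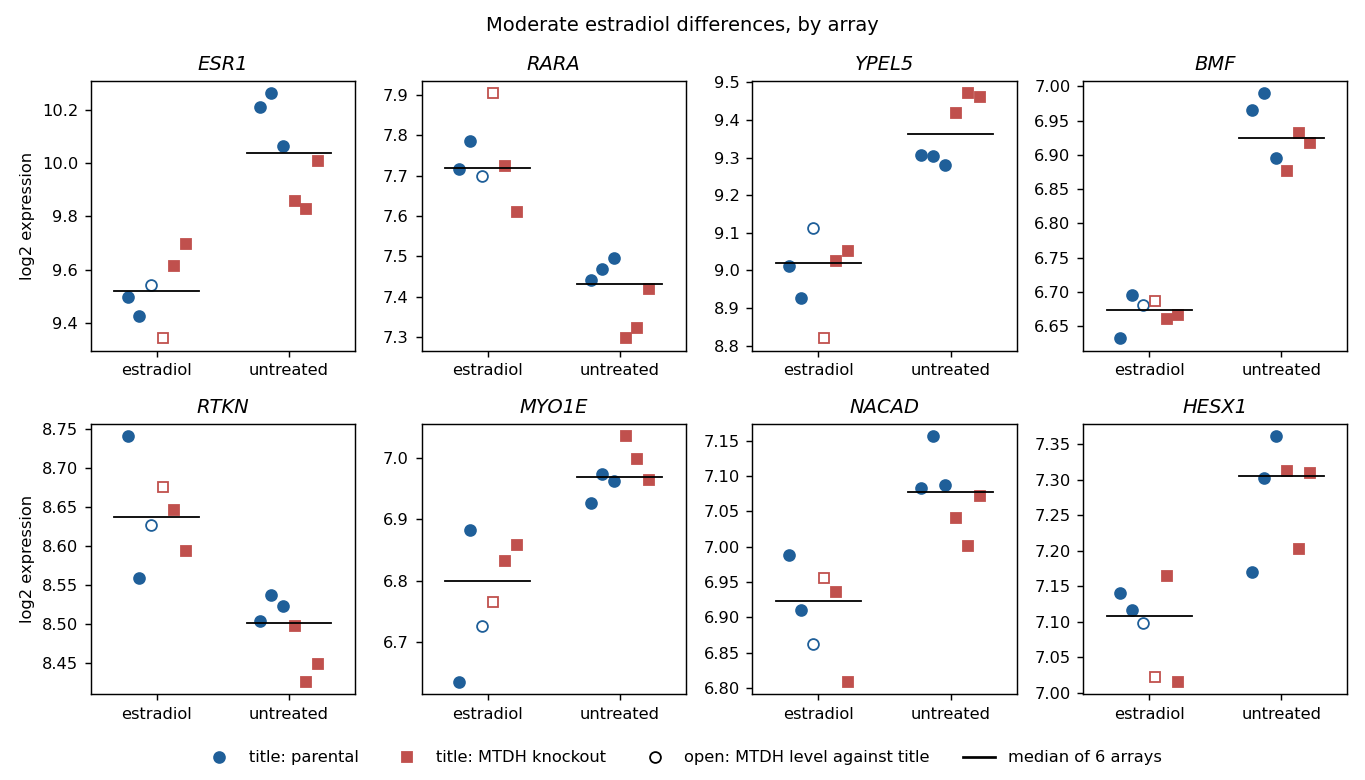
Log2 expression on each array of 8 genes with differences under 1.5-fold, estradiol left and untreated right, with symbols as in the plot of marker genes. ESR1, RARA, YPEL5 and BMF are members of the gene lists, and RTKN, MYO1E, NACAD and HESX1 were called with 6 arrays a side but in neither comparison of 3 against 3 by MTDH level. In every panel the groups do not overlap. BMF was below the filter value of 6.817 on every estradiol array and passed the filter only through untreated arrays. The panels have axes of their own that do not start at 0.

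The response was then read in each line. For this the 10 arrays whose title and MTDH level go together were fitted with a mean for each titled group, which leaves 2 estradiol and 3 untreated arrays in each line. Of the 2893 genes called with all arrays, 2888 had a difference of the same sign in both lines and 5 had opposite signs. This count is partly fixed by the choice, since genes that cancel between lines could not be called in the pooled fit. The interaction, the knockout response minus the parental response, was called for 148 of 19670 genes (0.752%), 46 of them among the 2893. That number moved by over 1.5 times when any of the 10 arrays other than knockout untreated 1 was left out, between 19 genes without parental estradiol 2 and 737 without knockout estradiol 3, so it is loosely determined.

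Among the 12 largest rises and 12 largest falls without overlap between groups, 5 passed the interaction test and 19 did not. Of those that did not, G0S2 differed by 1.95 in knockout cells and 1.95 in parental cells, and CKB by 1.70 in knockout cells and 1.85 in parental cells, with adjusted interaction p from limma of 0.99 and 0.75. A p above the threshold does not show that the lines respond alike. Of the 5 that passed, MLPH rose by 1.62 in knockout cells and 2.89 in parental cells (adjusted p = 8.4e-06), ALPPL2 by 2.68 and 3.70 (adjusted p = 0.002), and PIM1 by 2.03 and 1.37 (adjusted p = 0.027). KRT17 differed by −0.90 in knockout cells and −1.35 in parental cells (adjusted p = 0.039) and MEOX1 by −0.58 and −1.22 (adjusted p = 0.015). In all 5 the size differed, larger in parental cells except for PIM1. Their shared direction was fixed by the choice, since genes without overlap between groups move the same way in any subset of arrays.

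**Figure D5:**
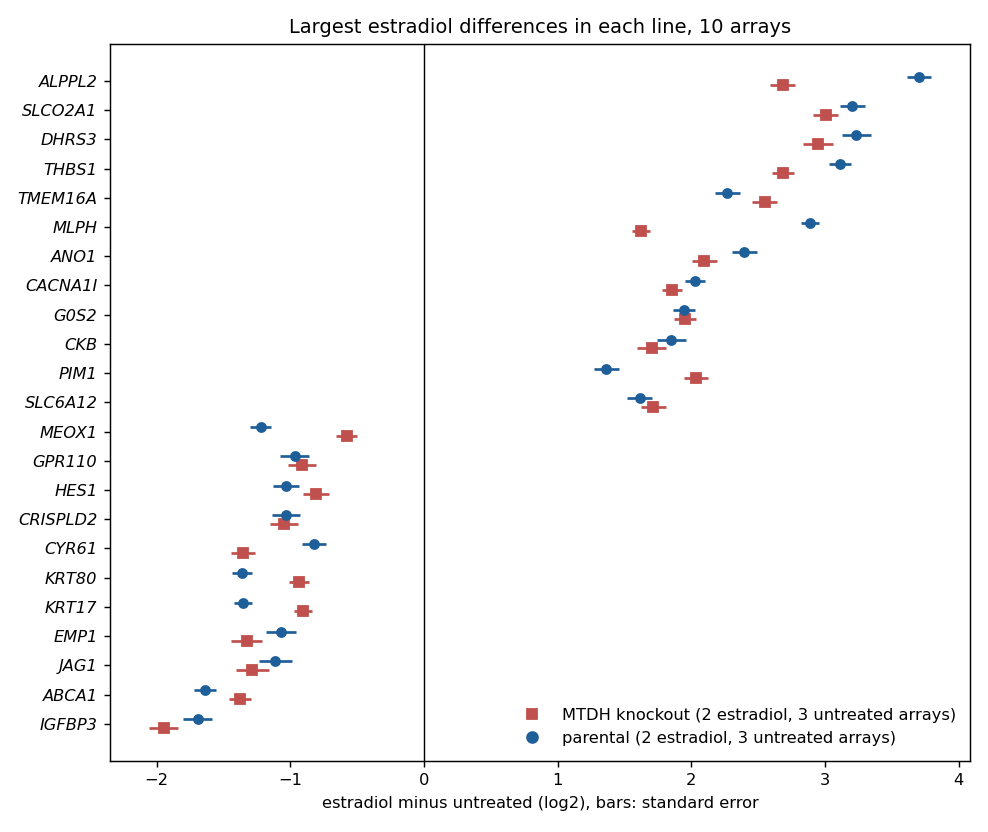
Estradiol minus untreated difference (log2) of the 12 largest rises and 11 of the 12 largest falls among called genes whose groups did not overlap, in MTDH knockout cells (red squares) and parental cells (blue circles), from the 10 arrays whose title and MTDH level go together, with standard errors as bars. Every gene shown moves the same way in both lines, which was fixed by choosing genes whose groups did not overlap. MLPH stands at 1.62 in knockout cells and 2.89 in parental cells, the widest gap between lines in the plot.

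Some genes were on the arrays under both a current and an older symbol, which gives a reading by another probe set from the same RNA. Of 210 such pairs with both rows tested, 144 were called in neither row. In 24 pairs both rows were called, and in all 24 the direction was the same. In 42 pairs 1 row was called, and the other had the same sign in 35 of them. Among all genes tested 14.7% were called, 2.75% higher and 12% lower. As most calls were falls, unrelated rows would often share a direction too. The shared direction of the pairs was not tested against this excess of falls.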

How the data were processed

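Total RNA was measured on 12 Illumina whole-genome arrays by direct hybridization of biotin-labelled material, per the labels. The authors deposited log2 values, 1 for each array and gene identifier, in 34595 rows with 0 missing values. How background was corrected, arrays normalized and probes combined is not given in the sources used here. The RefSeq gene table held 17757 of the identifiers as current symbols and 3303 as an older symbol of a single gene, while 150 were ambiguous and 13385 were not in it. Names are printed as deposited.

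The test covered the 19670 genes that were above 6.817, the median over the whole table, on 3 or more arrays. A linear model with terms for estradiol and for the MTDH level was fitted in limma (version 3.58.1, under R 4.3.3) with default empirical Bayes settings, leaving 9 residual degrees of freedom. Two-sided p-values received Benjamini-Hochberg adjustment across the 19670 genes, and an adjusted p under 0.05 was called. Differences are estradiol minus untreated with standard errors (SE). Precision is limited by the number of arrays. On simulated data for the comparison over 19670 genes, 64% of genes changed by 1.2-fold and 99% of genes changed by 1.5-fold were recovered, with 6 false calls. The simulation changed 200 genes, drew independent normal noise for each gene and held no scaling shift between arrays. Its recovery and false calls hold for those settings, which are simpler than the data.

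The genes, 42 gene lists and tests were chosen with earlier results of these data known. Of 1057 listed genes, 893 were tested, 163 did not pass the filter and 1, CDK1, was not matched to a row. Named genes were ESR1, the 6 markers, the 12 largest rises and falls without overlap, up to 10 changes in each direction under 1.5-fold called in neither comparison of 3 against 3 by MTDH level, and up to 4 called members of each list with the smallest p. A few genes that this rule names are not reported here. Lists are described by counts and medians, with no test of the list. Alternatives covered scaling, the filter, the line term, the threshold, the prior, array weights, replicate numbers and leaving out arrays. All of them were planned except quantile normalization without the 2 arrays, which was added after the data were seen.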

Additional observations from a re-analysis of the deposited data

Results flagged for a closer look

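Among 344 groups of 6 arrays examined for the named genes, 9 held an array that stood apart from the others by Dixon's test at the 95% level, where chance gives about 1 in 20. Parental estradiol 3, an array whose MTDH level went against its title, was the highest estradiol array for CYR61 (11.01, next 10.70) and CRISPLD2 (9.95, next 9.77). Parental untreated 3 was the lowest untreated array for IGFBP3 (11.23, next 11.58), SLC1A5 (10.16, next 10.55) and CLDN1 (10.21, next 10.48). Knockout estradiol 2 was the highest estradiol array for HES1 (8.91, next 8.59) and RPL24 (11.59, next 11.44). Knockout estradiol 3 was the lowest estradiol array for MIPEP (7.64, next 7.79), and knockout untreated 2 the lowest untreated array for MYCN (7.17, next 7.38).

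Of 172 named genes, 8 passed the interaction test in limma over 10 arrays, so that the knockout response differed from the parental response. The knockout response minus the parental response was −1.02 for ALPPL2, −1.26 for MLPH and −0.69 for PTGS2, which differed by 0.07 in knockout cells and 0.76 in parental cells, and it was 0.67 for PIM1. It was 0.45 for KRT17, 0.64 for MEOX1, 0.68 for DDIT4, an inhibitor of mTORC1, and 0.49 for the chaperone CRYAB, all of which fell in the pooled comparison. Each line has 2 estradiol arrays here.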

How the results depend on the processing

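The count of 2893 calls stayed within 1.5 times under quantile normalization (2964), median centring, other filters, a mean per estradiol state and MTDH level, a trended and robust prior and array weights. Rises numbered 1349 after quantile normalization. With the line from the titles, 1890 genes were called (339 higher, 1551 lower, 1704 under 1.5-fold), and with no line term 1311 (282 higher, 1029 lower, 1143 under 1.5-fold). At an adjusted p under 0.01 the counts were 1655 called, 350 higher, 1305 lower and 1461 under 1.5-fold, and against a minimum change of 1.5-fold they were 58 called, 40 higher and 18 lower. Without the 2 arrays and after quantile normalization 1004 rose and 1210 fell. Leaving out 1 array at a time gave 2209 to 3297 calls, 451 to 533 rises, 1676 to 2802 falls and 2015 to 3088 calls under 1.5-fold. Interaction calls numbered 581 by MTDH level over 12 arrays, 1 by title over 12 arrays and 237 after quantile normalization, and 19 to 737 with 1 array left out. The cause of these shifts was not tested. CD68, which was not called, read 0.016 after quantile normalization and 0.00085 when the 2 arrays were also left out. Among named genes, 337 of 4464 values lost the call, 0 gained it and 2 changed sign.

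Replicate numbers did not settle a pairing. Of 18 same-numbered pairs of arrays, 6 had residuals correlated above 0.1, and the 18 ranged from −0.4985 to 0.6467. The lowest and the highest were pairs of a parental and a knockout estradiol array. Among pairs with an untreated array the highest was 0.1952. Residuals were taken from titled groups, and each estradiol group held 1 of the 2 arrays whose MTDH level went against its title. The correlations thus cannot tell pairing from that mismatch. With the replicate block 2609 genes were called, 494 higher and 2115 lower, and 2415 of them under 1.5-fold.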
